A study of Homo sapiens with 12 samples.

Results

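KO5 and KO2 are derivatives of RKO in which PRDM1 was targeted with CRISPR/Cas9, and the data compared here are their polyadenylated RNA, 2 libraries each, or 4 of the 12 libraries of the series. They were chosen by their titles and not by any measured value. RKO is an established human colon carcinoma line. The groups compared were KO5 (PRDM1 knockout), KO2 (PRDM1 knockout) and wild-type RKO cells (WT), from which both derivatives were made. RKO cells overexpressing green fluorescent protein (GFP) served as a further comparison, with 2 libraries in each of these groups. All were grown in the same serum-supplemented medium. The remaining RKO groups overexpressed PRDM1 itself, either as PRDM1 alpha or as PRDM1 beta, with 2 libraries each. Those libraries entered the model fit and the principal component analysis, and their levels in some genes are given at the end. The labels give neither the guide nor the edited allele of either derivative, and do not say whether KO5 or KO2 grew from a single cell, nor whether the 2 libraries of each line were grown separately. Their spread, which the p-values rest on, may therefore be technical.

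PRDM1, also called BLIMP1, is a zinc finger protein that binds DNA and silences transcription, best studied in lymphocytes as they become plasma cells. Whether a gene is on or off can be passed on through cell division by DNA methylation and chromatin marks, neither of which was measured here. Levels in bulk RNA are averages: fewer cells with a transcript and less of it per cell cannot be told apart.

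Gene counts per library were 30031390 and 28575682 in KO5, 43970008 and 35604471 in KO2, 36503307 and 55961821 in WT, and 25414550 and 27509340 in GFP cells. In a principal component analysis of all 12 libraries, the second component, with 18.9% of the variance, held the KO5 libraries at 29.6 and 31.0, the KO2 libraries at -22.2 and -21.7, the WT libraries at -6.92 and -7.98, and the GFP libraries at -4.11 and -3.91. PRDM1 itself had 1 and 1 counts in KO5, 0 and 1 in KO2, and 4 and 4 in WT, so that its loss could not be checked from these counts. Of the colon epithelial markers, KRT8, KRT18 and CDX2 were present in each of the 3 groups, with KRT8 at 809 and 756 CPM (counts divided by the gene counts of the library, per 1e+06, and scaled between libraries) in KO5, 683 and 703 CPM in KO2, and 647 and 652 CPM in WT. CDH1, EPCAM, CDX1 and CDH17 had 0 counts in every library of KO5, KO2 and WT. The rest of the 12 colon epithelial markers, KRT19, KRT20, VIL1, LGALS4 and GPA33, stood at 0.123 CPM or less in these libraries. Only 3 of the 12 thus reached 1 CPM. Markers of endothelial cells summed to at most 0.101 CPM in any of these libraries. Those of leukocytes summed to between 12.2 and 12.9 CPM in KO5, 11.3 and 13.0 CPM in KO2, and 18.0 and 19.1 CPM in WT, nearly all from CD68. Erythroid markers, in effect the near-identical copies HBA1 and HBA2, summed to 0.528 to 0.607 CPM in KO5, 2.30 to 2.46 CPM in KO2 and 1.78 to 2.56 CPM in WT. Neural markers, mostly TUBB3, summed to 50.4 to 55.8 CPM in KO5, 73.8 to 80.1 CPM in KO2 and 76.9 to 79.3 CPM in WT. The part of these markers in the results was not tested.

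A gene was called on in a derivative at 1 CPM or more in both libraries, and off at under 0.1 CPM in both. By this rule 8 genes were on in KO5 and off in KO2, which is 0.0303% of the 26364 genes in the files and 0.0699% of the 11441 genes on in KO5. Only 2 genes were on in KO2 and off in KO5, or 0.00759% of the genes in the files and 0.0175% of the 11451 genes on in KO2. These counts follow the levels chosen: at 0.5 and 0.2 CPM they were 30 and 8, and at 2 and 0.05 CPM they were 3 and 0. With CPM over library totals alone they were 8 and 3. The off level is also harder to meet in KO5, whose libraries were shallower. Before scaling, 3 counts equal 0.0999 and 0.105 CPM in the KO5 libraries and 0.0682 and 0.0843 CPM in those of KO2. The part of depth in the 8 against 2 was not tested. At 1 CPM, 11293 genes were on in both. The 8 genes were COL16A1, TFPI, RASAL1, IL18, FAR2P1, SSTR5, MAP3K7CL and CD163L1, and the 2 genes were CSPG4 and KIF5C. Since the rule used the KO5 and KO2 values, these are given as a description, and what is independent of the rule is the level of each gene in WT and GFP cells.

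The sequence around the start of transcription is shown for TFPI, COL16A1 and CSPG4, the genes of this set that reached 5 CPM in the derivative where they were on. Each is RefSeq sequence of 250 bases before to 50 after the annotated start (GRCh38.p14, minus strand for all 3), 5′ to 3′, with the dinucleotide CG in capitals, the site of DNA methylation in human cells.
TFPI: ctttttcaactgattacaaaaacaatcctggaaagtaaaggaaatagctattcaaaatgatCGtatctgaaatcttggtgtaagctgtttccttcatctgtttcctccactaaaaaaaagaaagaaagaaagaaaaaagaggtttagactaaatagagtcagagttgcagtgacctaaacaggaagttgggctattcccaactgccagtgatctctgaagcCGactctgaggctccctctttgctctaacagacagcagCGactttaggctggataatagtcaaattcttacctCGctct
COL16A1: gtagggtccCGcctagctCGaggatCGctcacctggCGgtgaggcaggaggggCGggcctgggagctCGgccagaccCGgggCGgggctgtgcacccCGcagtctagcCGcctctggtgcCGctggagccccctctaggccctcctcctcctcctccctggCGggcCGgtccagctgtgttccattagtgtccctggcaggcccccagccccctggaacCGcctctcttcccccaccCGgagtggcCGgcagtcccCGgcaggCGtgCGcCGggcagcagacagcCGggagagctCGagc
CSPG4: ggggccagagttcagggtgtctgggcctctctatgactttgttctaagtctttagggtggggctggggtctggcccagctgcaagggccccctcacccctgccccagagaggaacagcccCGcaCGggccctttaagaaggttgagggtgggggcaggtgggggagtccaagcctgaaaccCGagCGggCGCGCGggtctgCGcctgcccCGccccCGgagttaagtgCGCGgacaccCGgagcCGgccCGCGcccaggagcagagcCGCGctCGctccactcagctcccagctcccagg
The windows lie at chr2:187554386-187554685 for TFPI, chr1:31703968-31704267 for COL16A1 and chr15:75712799-75713098 for CSPG4.

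CG, which reads the same on both strands, occurs 4 times in the TFPI window, 22 times in that of COL16A1 and 19 times in that of CSPG4. The median over the 35116 promoters of the table is 14. At least as many occur in 75.5% of all promoters for TFPI, in 37.7% for COL16A1 and in 42.9% for CSPG4. Of the 10 on/off genes 6 had a promoter in the table, and the other 3 held CG 18 times (SSTR5), 2 times (CD163L1) and 2 times (KIF5C). The counts thus lay on both sides of the median. Methylation was not measured, and the start in use in these cells may not be the annotated one.

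Of the genes on in KO5, TFPI and COL16A1 encode secreted proteins. TFPI, an inhibitor of the tissue factor pathway of coagulation, stood at 5.12 and 7.11 CPM in KO5, had 0 counts in both KO2 libraries, and stood at 1.98 and 1.96 CPM in WT and 1.87 and 1.77 CPM in GFP cells. TFPI was at least 159-fold higher in KO5 than in KO2, taking 3 counts over the KO2 group as the limit that 0 counts allow, and the lower end of the exact 2-sided binomial interval was 128.8. It was 3.10-fold higher in KO5 than in WT (95% interval 2.58 to 3.72; intervals here are exact binomial and cover counting error only). WT cells were thus on for TFPI, at 32.2% of the KO5 level.

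COL16A1, a fibril-associated collagen chain, stood at 5.66 and 6.65 CPM in KO5, 0 and 0.0572 CPM in KO2, 0.870 and 0.917 CPM in WT, and 0.701 and 0.940 CPM in GFP cells. The ratio of KO5 to KO2 was 240.9 (95% interval 66.2 to 1997), with 2 counts in all of KO2. The WT and GFP libraries all lay between the derivatives, just under the level set for on.

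RASAL1, SSTR5 and MAP3K7CL followed the same order as COL16A1. RASAL1, which stimulates the GTPase of RAS proteins, stood at 4.11 and 3.80 CPM in KO5, 0.0230 and 0 CPM in KO2, and 0.408 and 0.423 CPM in WT, and the ratio of KO5 to KO2 was 310.4 (95% interval 55.2 to 12312). SSTR5, a receptor for somatostatin, stood at 1.62 and 1.41 CPM in KO5, 0 and 0.0286 CPM in KO2, and 0.381 and 0.706 CPM in WT, and its ratio was 118.8 (95% interval 20.8 to 4743). A single KO2 count stands behind each of these ratios, which is why their intervals are wide. MAP3K7CL stood at 1.79 and 1.20 CPM in KO5, 0.0461 and 0.0572 CPM in KO2, and 0.245 and 0.159 CPM in WT, with a ratio of 29.4 (95% interval 11.1 to 110.1). In each of these 3 genes both KO5 libraries lay above both WT libraries, and both WT libraries above both KO2 libraries.

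IL18, a cytokine that is cut to its active form by inflammasomes, stood at 2.29 and 2.78 CPM in KO5, 0.0461 and 0.0286 CPM in KO2, and 0.109 and 0.212 CPM in WT. The ratio of KO5 to KO2 was 66.1 (95% interval 22.2 to 324.3). IL18 had the lowest WT level relative to KO5 of the 8 genes, 6.32%, and was 14.8-fold higher in KO5 than in WT (95% interval 8.80 to 26.5). CD163L1, a scavenger receptor with cysteine-rich domains, stood at 1.08 and 1.27 CPM in KO5, 0.0461 and 0.0286 CPM in KO2, and 0.190 and 0.106 CPM in WT, a ratio of KO5 to KO2 of 30.6 (95% interval 10.0 to 152.0). These are low levels, and KO2 held 3 counts of each. FAR2P1, a pseudogene of a fatty acyl-CoA reductase gene, stood at 1.65 and 1.51 CPM in KO5, at 0 counts in KO2, and at 0.245 and 0.406 CPM in WT, at least 41.4-fold higher in KO5 than in KO2 by the limit used for TFPI, with 33.0 as the lower end of the exact interval. Reads of a pseudogene may come from its parent gene, so its counts are uncertain.

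In the opposite direction, CSPG4, the membrane proteoglycan NG2, stood at 0.0337 and 0.0704 CPM in KO5, 8.25 and 8.29 CPM in KO2, 4.70 and 4.48 CPM in WT, and 3.86 and 3.04 CPM in GFP cells. The ratio of KO2 to KO5 was 160.1 (95% interval 54.5 to 778.2), and WT stood at 55.5% of KO2. CSPG4 was on in WT, and KO5 lay far below it. KIF5C, a kinesin heavy chain of axonal transport, stood at 0.0674 and 0.0352 CPM in KO5, 1.73 and 2.00 CPM in KO2, 2.09 and 2.47 CPM in WT, and 3.39 and 3.54 CPM in GFP cells. WT stood at 122% of KO2 for this gene, which was therefore on in KO2, WT and GFP cells and off in KO5.

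**Figure D1:**
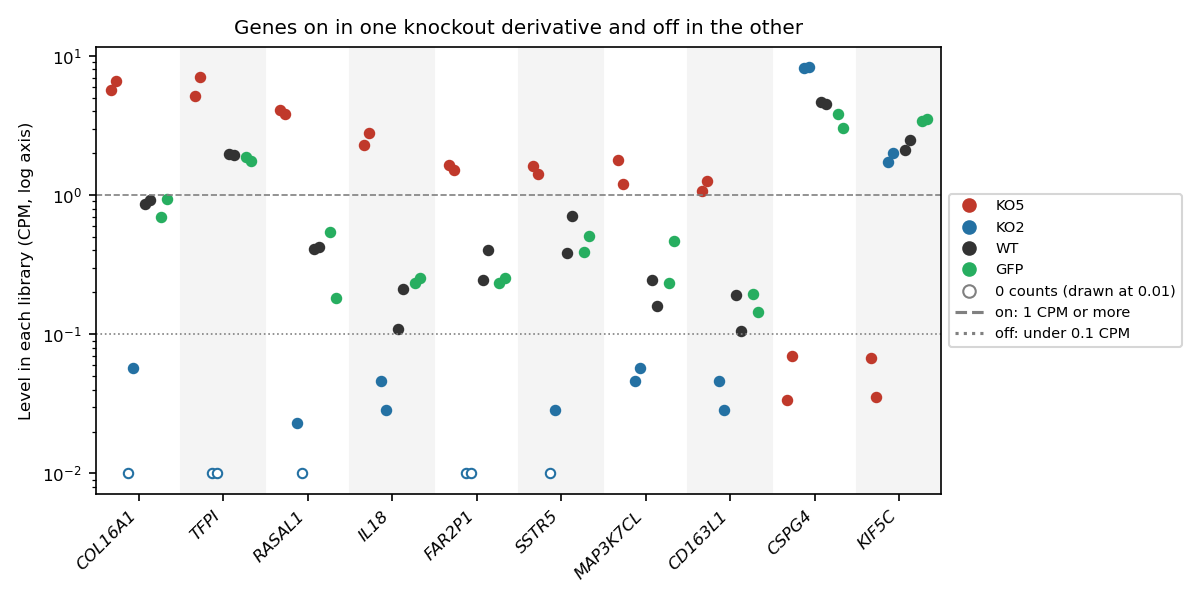
Levels of the 10 genes on in one derivative and off in the other, in CPM on a log axis, with 1 point per library for KO5, KO2, WT and GFP cells; open circles are libraries with 0 counts, drawn at 0.01, and the lines mark the levels set for on and off. The WT and GFP points lie between those of KO5 and KO2 in 9 of the 10 genes and above both in KIF5C.

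The WT libraries, which had no part in choosing these genes, lay between the KO5 and KO2 libraries in 9 of the 10 genes, and so did the GFP libraries. The exception was KIF5C for both. By the on and off levels, WT was on for TFPI, CSPG4 and KIF5C and between the levels for the other 7. WT was off for none of the 10. For the 8 genes on in KO5, WT stood at 6.32% (IL18) to 35.9% (SSTR5) of the KO5 level. A gap this wide leaves more room between the groups than a small one does, which limits what the order alone shows. Since the KO5 and KO2 values chose these genes, their calls against WT, which are used further below, are a description only.

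The levels set for on and off divide genes that differ little. Just inside them lay CD163L1 and MAP3K7CL for KO5 and CSPG4 and KIF5C for KO2. Just outside lay RASSF9, which had 1.25 and 0.915 CPM in KO5 and 0 counts in KO2, WT and GFP cells, and LIPH, a phospholipase, which had 1.01 and 0.879 CPM in KO5 and 0.0921 and 0.0572 CPM in KO2. On the side of KO2, GFPT2 just missed with 0.101 and 0.0352 CPM in KO5 and 6.73 and 6.89 CPM in KO2. ITGB2, the beta chain of leukocyte integrins, had 0 and 0.0352 CPM in KO5 and 1.24 and 0.886 CPM in KO2. ITGB2 overlaps an antisense gene, and whether counting used the strand is not stated. RASSF9 was the one of these with no count in WT.

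The whole transcriptome was then compared between the derivatives. Of 12858 genes with enough counts, 7062 (54.9%) were called in KO5 against KO2, 3453 higher (26.9%) and 3609 lower (28.1%), with edgeR's quasi-likelihood test at an adjusted p under 0.05. Most of these differences were small. A change of 2-fold or more was found for 264 genes higher in KO5 (2.05%) and 177 lower (1.38%), and of 4-fold or more for 82 higher (0.638%) and 48 lower (0.373%). Of the 130 genes of 4-fold or more, 92 stood under 5 CPM in both derivatives. Most of the large differences thus lay among genes of low level, where ratios are least precise. The share of all tested genes under 5 CPM was not counted. The median log2 fold change over all genes tested was -0.01.

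**Figure D2:**
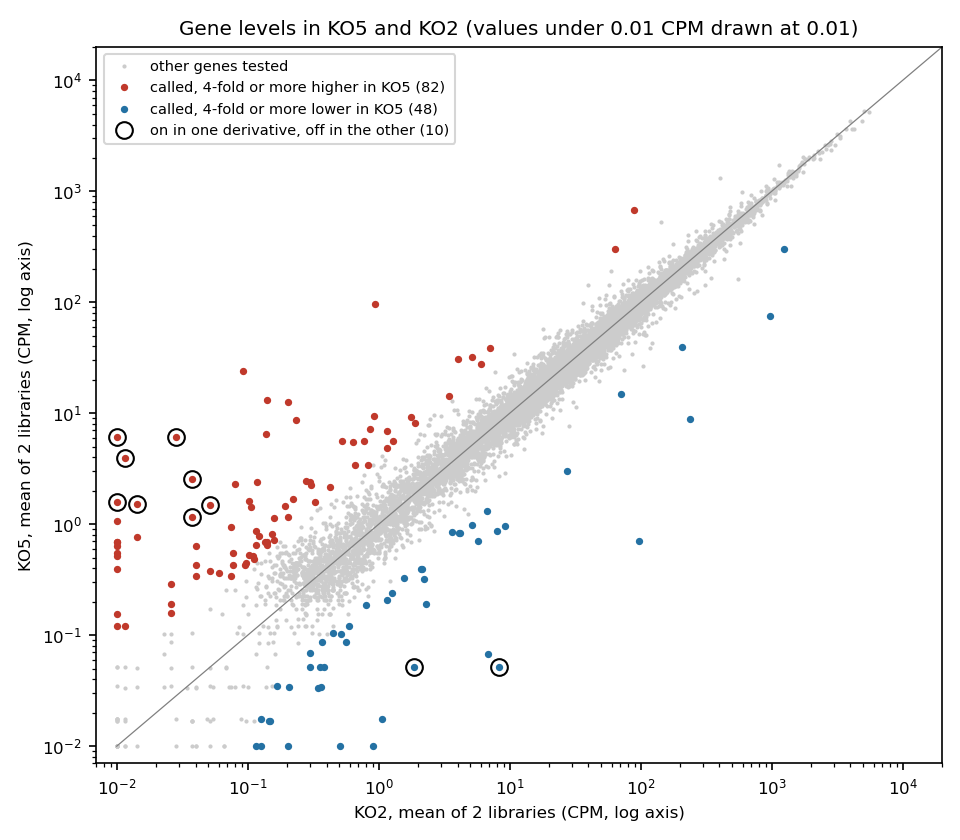
Mean level of each tested gene in KO5 (vertical axis) and KO2 (horizontal axis), in CPM on log axes, 2 libraries each, with values under 0.01 drawn at 0.01. Most genes lie along the diagonal, while 82 called genes lie 4-fold or more above it and 48 as far below, and the 10 on/off genes are circled.

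Where the higher derivative reached 5 CPM, 24 genes were higher in KO5 by 4-fold or more and 14 were lower. The largest rises took in, beside TFPI and COL16A1, genes of a small GTPase, a Notch-modifying enzyme and signalling proteins. RAB34, a GTPase of vesicle traffic and cilia, stood at 24.7 and 23.3 CPM in KO5, 0.0691 and 0.114 CPM in KO2, and 8.05 and 7.50 CPM in WT, a log2 fold change of KO5 over KO2 of 8.01 ± 0.55 (SE, n = 2 libraries per group; adjusted p = 1.85e-35, edgeR). MFNG, the glycosyltransferase manic fringe that modifies Notch receptors, stood at 97.0 and 94.6 CPM in KO5, 0.967 and 0.915 CPM in KO2, and 10.0 and 10.2 CPM in WT (log2 fold change 6.66 ± 0.17; adjusted p = 5.63e-47, edgeR). In both genes the KO5, WT and KO2 libraries formed separate steps.

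PTGES, the inducible prostaglandin E synthase, stood at 13.3 and 13.0 CPM in KO5, 0.138 and 0.143 CPM in KO2, and 3.54 and 3.99 CPM in WT (log2 fold change 6.51 ± 0.46; adjusted p = 4.42e-29, edgeR). SYK, a tyrosine kinase of immune receptors, stood at 12.8 and 12.7 CPM in KO5, on average 0.204 CPM in KO2, and 3.24 and 3.03 CPM in WT (log2 fold change 5.94 ± 0.38; adjusted p = 8.75e-29, edgeR). Both were above the off level in KO2, and in both WT lay between the derivatives. TNFRSF14, a receptor of the tumour necrosis factor family, averaged 6.51 CPM in KO5, 0.138 CPM in KO2 and 1.62 CPM in WT, and CCDC80, a secreted matrix protein, averaged 8.74 CPM in KO5, 0.235 CPM in KO2 and 3.45 CPM in WT. Their log2 fold changes were 5.50 ± 0.45 and 5.15 ± 0.34. BAZ2B, a bromodomain protein of chromatin, averaged 9.41 CPM in KO5, 0.916 CPM in KO2 and 4.16 CPM in WT (log2 fold change 3.34 ± 0.19). PLEKHA4, a protein with a pleckstrin homology domain, was the one of the 10 largest rises for which KO5 was not called against WT, with 6.10 and 5.07 CPM in KO5, 0.645 and 0.400 CPM in KO2, and 5.17 and 4.87 CPM in WT (KO5 over WT log2 fold change 0.16, adjusted p = 0.287, edgeR).

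The largest falls included, beside CSPG4, a Golgi protein, a focal adhesion protein and a lysosomal protein. FAM198B, a Golgi membrane protein, stood at 0.674 and 0.739 CPM in KO5, 96.1 and 97.4 CPM in KO2, and 27.3 and 27.8 CPM in WT (log2 fold change -7.09 ± 0.23; adjusted p = 5.05e-46, edgeR). TNS4, a tensin of focal adhesions, stood at 8.70 and 9.04 CPM in KO5, 243 and 234 CPM in KO2, and 119 and 116 CPM in WT (log2 fold change -4.75 ± 0.07; adjusted p = 7.93e-50, edgeR). For both, WT lay between the derivatives with no overlap. NPC2, which carries cholesterol out of lysosomes, stood at 74.9 and 75.5 CPM in KO5, 949.6 and 978 CPM in KO2, and 531 and 499.9 CPM in WT (log2 fold change -3.68 ± 0.04; adjusted p = 6.54e-52, edgeR).

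ERRFI1, a feedback inhibitor of the EGF receptor, stood at 40.3 and 38.3 CPM in KO5, 202 and 211 CPM in KO2, and 122 and 120.2 CPM in WT (log2 fold change -2.39 ± 0.04; adjusted p = 3.45e-42, edgeR). LAMB3, a chain of laminin-332, averaged 0.861 CPM in KO5, 7.96 CPM in KO2 and 3.28 CPM in WT, and GFPT2, which feeds the hexosamine pathway, averaged 0.0681 CPM in KO5, 6.81 CPM in KO2 and 2.95 CPM in WT. Each of these 3 genes fell below WT in KO5 and rose above it in KO2. NAV2, a neuron navigator protein, averaged 15.1 CPM in KO5, 70.5 CPM in KO2 and 40.7 CPM in WT. PCDHB10, a clustered protocadherin, averaged 0.705 CPM in KO5, 5.71 CPM in KO2 and 3.47 CPM in WT, and its reads may be shared with neighbouring copies. PLK2, a polo-like kinase, was the exception among the 10 largest falls, since WT lay above both derivatives: it stood at 1.42 and 1.23 CPM in KO5, 6.93 and 6.52 CPM in KO2, and 8.86 and 9.14 CPM in WT.

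**Figure D3:**
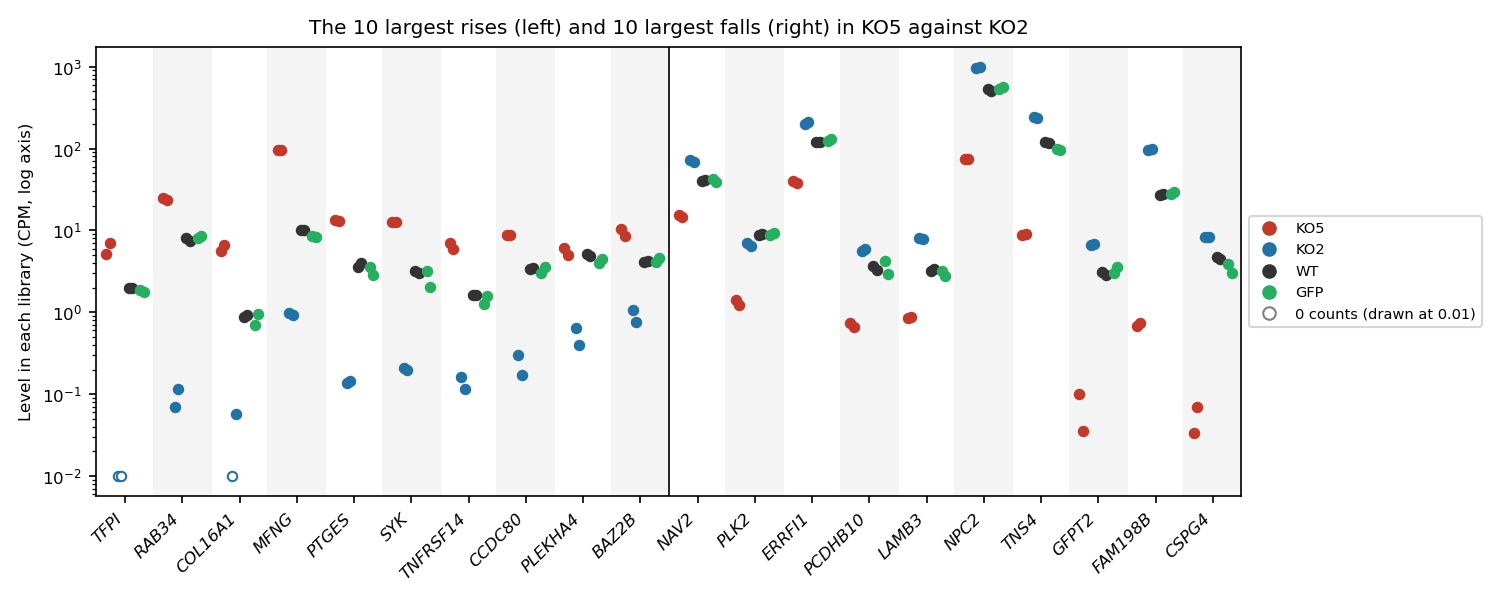
Levels of the 10 largest rises and 10 largest falls in KO5 against KO2, in CPM on a log axis, with 1 point per library for KO5, KO2, WT and GFP cells and open circles for 0 counts. WT and GFP points lie between the derivatives except in PLK2, where they lie above both, and in PLEKHA4, where WT overlaps KO5.

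Over all genes called in KO5 against KO2, the place of WT depended on the size of the difference. Both WT libraries lay between the derivatives for 38.7% of the 6621 called genes under 2-fold, 61.4% of the 311 genes of 2-fold to under 4-fold, and 65.4% of the 130 genes of 4-fold or more. With GFP cells the shares were 41.6%, 57.2% and 66.2%. WT lay above both derivatives for 14 of the 130 and below both for 0, and it overlapped a derivative for 31. Among the 82 genes of 4-fold or more higher in KO5, WT lay between for 61 (74.4%), and among the 48 lower in KO5 for 24. As with the on/off genes, larger gaps leave more room for WT to fall between.

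**Figure D4:**
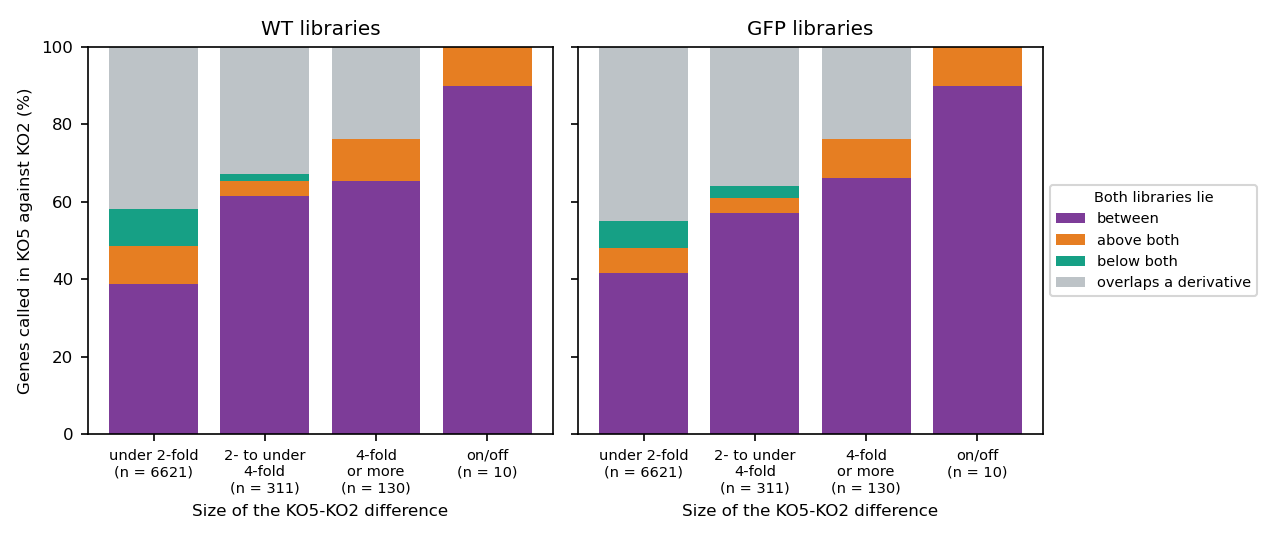
Share of genes called in KO5 against KO2 whose WT (left) or GFP (right) libraries lie between, above or below both derivatives or overlap one of them, in percent, by the size of the KO5-KO2 difference. The share lying between is 38.7% for WT under 2-fold and 65.4% at 4-fold or more, and no gene of 4-fold or more has WT below both.

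KO5 against WT called 6578 genes (51.2%), 25.2% of all genes tested higher and 25.9% lower, of which 25 were higher by 4-fold or more (0.194%) and 81 lower (0.63%). KO2 against WT called 3857 genes (30.0%), 15.1% higher and 14.9% lower, of which 1 was higher by 4-fold or more (0.00778%) and 86 lower (0.669%). Large losses relative to WT thus outnumbered large gains in each derivative. Of the 82 genes 4-fold or more higher in KO5 than in KO2, 42 were called higher than WT in KO5 and lower than WT in KO2, 19 were called in KO5 alone and 16 in KO2 alone. A further 2 were lower in both derivatives and 3 were called in neither. Of the 48 genes lower in KO5, 16 were called lower than WT in KO5 and higher in KO2, 20 were called in KO5 alone, 2 in KO2 alone, 7 lower in both and 3 in neither. These comparisons share libraries, and whether a gene is called in one and not in the other was not tested beyond the difference between KO5 and KO2 itself.

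Base composition moved with the small differences. The log2 fold change of KO5 over KO2 had a Spearman correlation of -0.41 with the GC content of the transcript, across 12528 genes, and of GFP cells over WT one of -0.66. The correlation was -0.51 for KO5 over WT and -0.07 for KO2 over WT. These are correlations across genes of the same libraries and are given as a description. With the GC trend removed, 6423 genes were called in KO5 against KO2, and 5096 of the 7062 calls were kept in the same direction. Of the 130 calls of 4-fold or more, 129 were kept. The chromosome medians of the log2 fold change ran from -0.13 on chromosome 16 to 0.10 on chromosome 13, and lay between -0.05 and 0.03 with the GC trend removed. The counts of each gene list below are therefore given both ways.

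Genes of the cell cycle and of Wnt signalling were mostly lower in KO5 than in KO2. Of 33 G1/S genes tested, 22 fell and 2 rose in KO5 against KO2, with a median log2 fold change of -0.18, and with the GC trend removed 23 fell and 3 rose. CDT1, which licenses replication origins, fell by 0.64 ± 0.05 on the log2 scale (43.4 CPM in KO5, 67.7 CPM in KO2, 63.8 CPM in WT), and MCM3, a subunit of the replicative helicase, by 0.39 ± 0.03. Of 34 G2/M genes, 20 fell and 7 rose (18 and 2 with the GC trend removed), among them TOP2A, the topoisomerase of mitotic chromosomes, which fell by 0.43 ± 0.03, while ECT2, an exchange factor of cytokinesis, rose by 0.41 ± 0.03. All these changes were under 2-fold. Against WT, 3 of the G1/S genes were higher in KO5 and 20 lower, and 10 were higher in KO2 and 0 lower. Of the G2/M genes 8 were higher in KO5 and 8 lower, while 14 were higher in KO2 and 3 lower. Among all genes tested, 26.9% rose and 28.1% fell in KO5 against KO2. Against WT, 25.2% of all genes were higher in KO5 and 25.9% lower, and 15.1% were higher in KO2 and 14.9% lower.

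Of 11 Wnt target and feedback genes, 7 fell and 0 rose, with a median of -0.26, and with the GC trend removed 7 fell and 1 rose. CCND1, cyclin D1, averaged 503 CPM in KO5, 734 CPM in KO2 and 387 CPM in WT, and so was higher than WT in both derivatives while lower in KO5 than in KO2. EPHB2, an ephrin receptor of the crypt, fell by 0.72 ± 0.05 on the log2 scale in KO5 against KO2. Against WT, 2 of the 11 were higher in KO5 and 5 lower, and 3 were higher in KO2 and 2 lower. For comparison, 26.9% of all genes tested rose and 28.1% fell in KO5 against KO2. The shares against WT were 25.2% higher and 25.9% lower in KO5, and 15.1% higher and 14.9% lower in KO2.

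Genes of the p53 response and of the interferon response were mostly higher in KO5. Of 20 p53 target genes, 15 rose and 2 fell in KO5 against KO2, with a median log2 fold change of 0.35, and with the GC trend removed 17 rose and 2 fell. RRM2B, a ribonucleotide reductase subunit, averaged 207 CPM in KO5, 112.6 CPM in KO2 and 113 CPM in WT, a rise of 0.87 ± 0.04 on the log2 scale, and MDM2, the ligase that degrades p53, rose by 0.56 ± 0.03. BAX, a pore-forming inducer of apoptosis, went the other way, at 25.8 CPM in KO5, 56.5 CPM in KO2 and 53.5 CPM in WT (log2 fold change -1.13 ± 0.05). BAX was the sole p53 target past 2-fold. Against WT, 16 of the 20 were higher in KO5 and 2 lower, while 8 were higher in KO2 and 2 lower. Over all genes tested the shares were 25.2% higher and 25.9% lower in KO5 against WT, and 15.1% higher and 14.9% lower in KO2 against WT. In KO5 against KO2 they were 26.9% higher and 28.1% lower.

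Of 24 interferon-stimulated genes tested, 14 rose and 2 fell in KO5 against KO2, with a median of 0.41, and with the GC trend removed 15 rose and 3 fell. SAMD9, an antiviral factor, averaged 14.2 CPM in KO5, 3.43 CPM in KO2 and 5.80 CPM in WT, a rise of 2.05 ± 0.11 on the log2 scale. TRIM22 and IRF7 also passed 2-fold, with 2.79 CPM in KO5 and 0.780 CPM in KO2 for TRIM22, and 2.20 CPM in KO5 and 1.05 CPM in KO2 for IRF7. Against WT, 9 of the 24 were higher in KO5 and 5 lower, and 0 were higher in KO2 and 10 lower, against 25.2% and 25.9% of all genes in KO5 and 15.1% and 14.9% in KO2. Of 19 antigen presentation genes, 7 rose and 2 fell in KO5 against KO2 (12 and 2 with the GC trend removed), and B2M, the light chain of class I molecules, rose by 0.37 ± 0.03. Among all genes tested, 26.9% rose and 28.1% fell in KO5 against KO2.

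Of 478 zinc finger genes, 201 rose and 64 fell in KO5 against KO2, with a median of 0.13, beside 26.9% and 28.1% of all genes tested. Their transcripts are poor in GC, with a median of 43.5% against 48.4% over all genes tested, and with the GC trend removed 161 rose and 56 fell. ZNF397 rose, averaging 192 CPM in KO5, 59.6 CPM in KO2 and 93.1 CPM in WT (log2 fold change 1.69 ± 0.04). ZNF217, a zinc finger oncogene, went the other way, at 43.2 CPM in KO5, 122 CPM in KO2 and 107 CPM in WT (adjusted p = 6.69e-33, edgeR). Against WT, 133 of the 478 were higher in KO5 and 112 lower, while 24 were higher in KO2 and 135 lower. The KO5 shares lay near those of all genes tested (25.2% higher and 25.9% lower), and all genes in KO2 against WT stood at 15.1% higher and 14.9% lower.

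Adhesion and matrix genes moved in both directions. Of 9 epithelial genes tested, 7 rose and 1 fell in KO5 against KO2 (8 and 1 with the GC trend removed), among them the tight junction gene OCLN, by 0.51 ± 0.05 on the log2 scale. Of 11 mesenchymal genes, 2 rose and 4 fell (3 and 4 with the GC trend removed). Among all genes tested, 26.9% rose and 28.1% fell. TAGLN, an actin-binding protein of smooth muscle, averaged 7.75 CPM in KO5, 28.3 CPM in KO2 and 26.4 CPM in WT, while ZEB1, a repressor of epithelial genes, averaged 31.9 CPM in KO5, 15.3 CPM in KO2 and 20.6 CPM in WT. The epithelial and mesenchymal lists thus held genes of both directions, and the defining epithelial markers CDH1 and EPCAM stayed at 0 counts.

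Of 24 collagen and laminin genes, 3 rose and 10 fell, but with the GC trend removed 7 rose and 7 fell, so that the balance changed with that setting. Among all genes tested, 26.9% rose and 28.1% fell without that setting. COL18A1, a basement membrane collagen, averaged 6.61 CPM in KO5, 17.7 CPM in KO2 and 13.1 CPM in WT, and it fell together with LAMB3 while COL16A1 rose. Of 11 integrin genes 6 rose and 2 fell (4 and 1 with the GC trend removed), and ITGAV, the alpha V chain, rose by 0.70 ± 0.04 on the log2 scale. Fibroblast markers, which share collagen genes with this list, summed to 13.2 CPM in both KO5 libraries, between 8.55 and 9.10 CPM in KO2 and between 10.2 and 12.2 CPM in WT, with COL3A1, DCN and FAP at 0 counts in all of them. Their part in these differences was not tested.

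Of all genes tested, 26.9% rose and 28.1% fell, and the shares in several of the remaining, mostly small lists were not far from these. Of 32 HOX genes 6 rose and 13 fell (8 and 9 with the GC trend removed), the largest fall being HOXC4, at 0.841 CPM in KO5, 4.08 CPM in KO2 and 2.43 CPM in WT. Of 22 clustered protocadherin genes 7 rose and 2 fell (8 and 2 with the GC trend removed), and of 11 imprinted genes 2 rose and 5 fell (2 and 4), among them H19, which averaged 2.49 CPM in KO5, 6.44 CPM in KO2 and 6.08 CPM in WT. Of 23 ERK feedback and immediate early genes 9 rose and 4 fell (10 and 3 with the GC trend removed). Members of the ERK list that were called thus lay on both sides. PHLDA1, a target gene of that pathway, averaged 165 CPM in KO5, 345 CPM in KO2 and 258 CPM in WT, and FOSL1, an AP-1 subunit, fell by 0.76 ± 0.04 on the log2 scale, while EGR1, an immediate early factor, rose by 0.62 ± 0.05. Of 16 TGF-beta and BMP targets 5 rose and 6 fell (5 and 5 with the GC trend removed). Of 7 interleukin and chemokine genes tested 4 rose, IL18 among them, and 3 fell, while with the GC trend removed 4 rose and 1 fell. Of 6 tested genes that PRDM1 represses in lymphocytes, 2 rose and 2 fell in both fits. Of 4 intestinal stem and differentiation genes tested 2 fell and 0 rose (3 and 0 with the GC trend removed), and of 2 cadherin genes 1 fell in both fits. The cancer-testis antigen families had 2 genes tested of 76 in the files, of which 1 rose, and 0 with the GC trend removed.

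**Figure D5:**
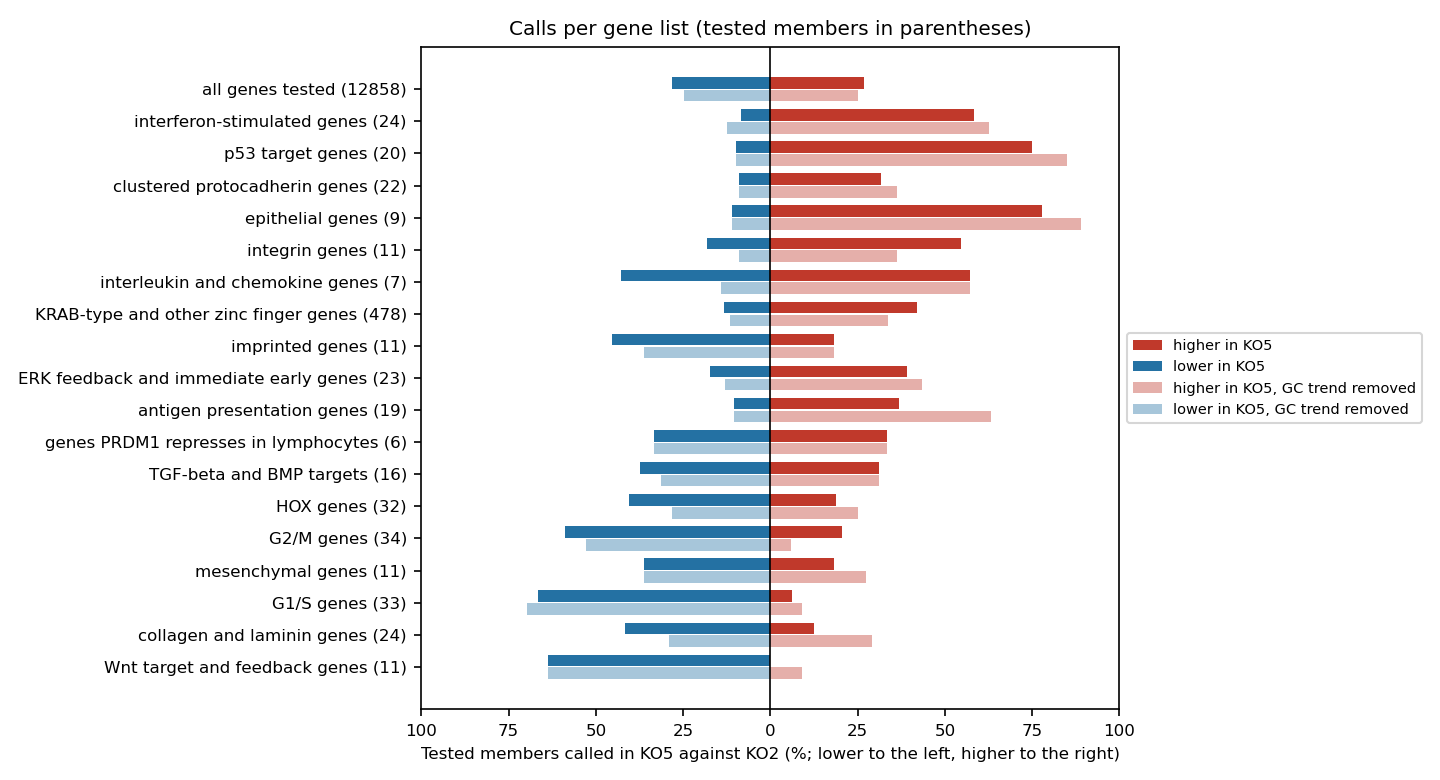
Share of the tested members of each gene list called lower (left) and higher (right) in KO5 against KO2, in percent, with paler bars for the fit with the GC trend removed. p53 target genes and interferon-stimulated genes lie mostly to the right, with 15 of 20 and 14 of 24 members higher in KO5, and G1/S and Wnt genes mostly to the left, against 26.9% higher and 28.1% lower over all genes tested.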

How the data were processed

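Polyadenylated RNA of RKO cells was sequenced from a stranded library kit, per the labels' protocols. The authors deposited whole read counts per gene symbol, 1 file per library and not normalized. The submitters' processing notes name genome build hg19 with TopHat, Bowtie2 and Cufflinks; the read counter, its strand setting, and tool versions are not given in the sources used here. Each file held 2 entries that name no gene, reads without a gene (9.13% to 10.8%) and ambiguous reads (1.66% to 1.75%), which were left out. The deposited comparison tables were not used.

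In R 4.3.3 with edgeR 4.0.16, genes passed filterByExpr with the 6 groups (12858 of 26364), library sizes were scaled with TMM factors, and a robust quasi-likelihood model (glmQLFit, glmQLFTest) was fitted to all 12 libraries, with Benjamini-Hochberg adjustment at 0.05. The common biological coefficient of variation was 2.18%. CPM are counts over gene counts times the scaling factor. Standard errors are Wald errors from fitted means and dispersions. The fit was tested on simulated data. Names, neighbours and promoters came from RefSeq tables (GRCh38.p14), which are not of the files' build, so that the promoter windows are given in that build and no other coordinates are. Transcript GC content came from GENCODE and was found for 97.4% of genes tested.

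The groups were taken from the titles. Replicate numbers did not pair the libraries of the 3 groups. Replicates of each group differed beyond sampling noise, so none was counted as a copy. The members and gene lists were chosen with earlier results of these data known. Genes were named by a rule: genes on in one derivative and off in the other; the 10 largest rises and falls of at least 5 CPM in the higher derivative and no overlap of libraries; up to 3 called members of each list by adjusted p, of which part are given; and the genes nearest the levels for on and off. Members of 2-fold or more in a list, beyond those 3, were named after their values were seen. Alternatives were DESeq2 1.42.0 (test and size factors), no filter, a fit of KO5, KO2 and WT only, the replicate number as a block, each library left out in turn, a test beyond 1.5-fold, other levels and scalings for on and off, and, added after seeing the data, removal of the GC trend.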

Additional observations from a re-analysis of the deposited data

Results flagged for a closer look

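Among the on/off genes and the largest rises and falls named above, KO5 and KO2 both differed from WT and in opposite directions for 23, as called in the model over all genes. Other named genes, such as ZNF397 and SAMD9, were called in this way too and are not among the 23. Of all called genes of 4-fold or more, 42 of the 82 higher in KO5 and 16 of the 48 lower were so called. The share over all genes tested was not counted. The difference between the 2 changes from WT is the contrast of KO5 against KO2 itself, since WT cancels, and its adjusted p from edgeR's quasi-likelihood test (n = 2 libraries per group) is given as a description. Among the genes higher than WT in KO5 and lower in KO2, the on/off genes gave adjusted p = 3.25e-23 for COL16A1, 1.53e-23 for TFPI, 1.04e-19 for RASAL1, 2.61e-16 for IL18, 4.70e-14 for FAR2P1, 6.63e-13 for SSTR5 and 5.29e-12 for MAP3K7CL. The other rises gave 1.85e-35 for RAB34, 5.63e-47 for MFNG, 4.42e-29 for PTGES, 8.75e-29 for SYK, 1.67e-23 for TNFRSF14, 7.19e-26 for CCDC80 and 4.11e-23 for BAZ2B. Among the genes lower than WT in KO5 and higher in KO2, the adjusted p was 1.07e-25 for CSPG4, 5.05e-46 for FAM198B, 7.03e-24 for GFPT2, 7.93e-50 for TNS4 and 6.54e-52 for NPC2. It was 1.64e-21 for LAMB3, 3.50e-17 for PCDHB10, 3.45e-42 for ERRFI1 and 1.77e-34 for NAV2. These genes were named for that same difference, so the small p-values follow from how they were chosen and support nothing further. The call of KO2 against WT was near the threshold for IL18 and MAP3K7CL (adjusted p = 0.038 and 0.0451, edgeR's quasi-likelihood test). KO2 held 3 counts of IL18 and 4 of MAP3K7CL, and both genes were chosen for low KO2 levels.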

How the results depend on the processing

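With 2 libraries per group and a small spread between them, differences of a few percent were called, so the counts of called genes depend on the smallest change that counts. Tested for changes beyond 1.5-fold, 441 genes were called in KO5 against KO2, 280 in KO5 against WT and 176 in KO2 against WT, by construction of a stricter test. DESeq2's Wald test called 5690 genes in KO5 against KO2 and 2433 in KO2 against WT, where edgeR called 3857; the cause was not tested. Leaving out 1 library at a time gave 5648 to 7066 calls in KO5 against KO2, 4964 to 6566 in KO5 against WT and 2563 to 3800 in KO2 against WT, the lowest without WT replicate 2, with fewer samples in the fit and the lone library of a group assumed to vary like the other groups.

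At an on level of 0.5 CPM and an off level of 0.2 CPM, 30 genes were on in KO5 and off in KO2 and 8 the reverse. At 2 CPM and 0.05 CPM there were 3 and 0. These counts follow from the levels chosen. Without 1 library at a time they were 8 to 12 and 2 to 3.

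Replicate numbers were checked by the correlation of deviations within groups, which was 0.02 between KO5 and KO2, 0.02 between KO5 and WT, and -0.07 between KO2 and WT, so they mark only a number. A replicate block gave 7013 calls in KO5 against KO2, 6524 in KO5 against WT and 3781 in KO2 against WT. The alternatives of the named genes were run for KO5 against KO2 alone, not for the contrasts with WT. Of these 1091 values of the 84 named genes tested, none changed direction, 1056 stayed on their side of the threshold, and 35 were no longer past it, 34 of them in the test beyond 1.5-fold and 1 with the GC trend removed. Most of the named genes were chosen for their difference between KO5 and KO2 in these same libraries. These outcomes thus follow largely from that choice and support nothing further. Genes with few counts have the least precise ratios: 3 counts allow 0.0999 and 0.105 CPM in the KO5 libraries, close to the off level.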

Other observations

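Large differences that lay side by side along the genome were counted, without a test of how many would arise by chance. Among called genes of 4-fold or more, 0 runs of 3 or more neighbours without another tested gene between them were found, and 4 pairs. The pairs included ITGB2 with its antisense gene, and CCDC80 with an entry that now bears the same symbol. At 2-fold or more there were 35 runs of 2 or more and 7 of 3 or more; these were looked at after their values were seen, and how many would arise by chance was not tested. One of the 7 held NPC2, ISCA2, an iron-sulfur assembly factor, and LTBP2, a matrix protein that binds latent TGF-beta. ISCA2 averaged 19.5 CPM in KO5, 48.5 CPM in KO2 and 35.7 CPM in WT, and was lower in KO5 as NPC2 was. LTBP2 rests on few counts, with 0.270 and 0.809 CPM in the KO5 libraries and 0.843 and 1.09 CPM in WT, so that its KO5 libraries differ more from each other than the higher of them does from WT. The nearby translation factor gene EIF2B2 averaged 47.9 CPM in KO5, 54.2 CPM in KO2 and 50.9 CPM in WT.

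The longest run held 4 noncoding genes, all higher in KO5. Of these, CCAT1 averaged 32.4 CPM in KO5, 5.19 CPM in KO2 and 9.04 CPM in WT, and CASC8 averaged 9.69 CPM in KO5, 2.63 CPM in KO2 and 3.18 CPM in WT. Another run held CD163L1 with the glucose transporter genes SLC2A14 and SLC2A3. SLC2A3 averaged 1326 CPM in KO5, 402 CPM in KO2 and 530.2 CPM in WT, a log2 fold change of 1.72 ± 0.03 for KO5 over KO2. SLC2A14 and SLC2A3 are close copies, and how reads were shared between them is not stated.

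Several genes that separate KO5 from KO2 also stood apart in the libraries overexpressing the alpha or beta form of PRDM1. KIF5C, off in KO5, stood at 0.297 and 0.0986 CPM with alpha and 0 and 0.0825 CPM with beta, against 3.39 and 3.54 CPM in GFP cells. FAM198B stood at 1.78 and 1.33 CPM with alpha and 2.04 and 2.10 CPM with beta, against 28.1 and 29.8 CPM in GFP cells. TFPI, at 0 counts in KO2, stood at 5.01 and 5.47 CPM with alpha and 4.92 and 4.66 CPM with beta, against 1.87 and 1.77 CPM in GFP cells. LAMB3, low in KO5, stood at 54.2 and 48.8 CPM with alpha and 28.7 and 25.2 CPM with beta, against 3.19 and 2.75 CPM in GFP cells. In each of these genes the alpha and beta libraries lay outside the range of the GFP libraries. These contrasts were not tested here, and the genes were chosen after their values were seen. Of the other on/off genes, CD163L1, IL18 and CSPG4 also lay outside the GFP range with both forms. FAR2P1 and SSTR5 did so with alpha alone. COL16A1 did so with beta alone, at 1.31 and 1.28 CPM against 0.701 and 0.940 CPM in GFP cells. RASAL1 and MAP3K7CL did not stand apart, since their alpha and beta libraries both overlapped the GFP libraries. The first principal component (50.9% of the variance) held alpha and beta libraries at 35.4 to 35.9 and GFP libraries at -10.5 and -11.2. The share of all genes that stood apart in this way was not counted.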
